A study of Mus musculus with 15 samples.

Results

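Muscle of tumour-bearing mice that received lisinopril was compared with muscle of healthy mice, to see how far the first differed from the second. The comparison took 8 of the 15 libraries of the series, 4 labelled melanoma with lisinopril and 4 labelled as mock-injected controls, and all genes with at least 1 TPM (a transcript level scaled for transcript length and to a fixed sum per library) in at least 3 of the 8, which were 11576 of 47643 gene symbols. All mice were female, of strain C57BL6/J and aged 7 weeks per the labels, and the muscle sampled was the tibialis anterior at the front of the shin, made mostly of fast fibres. The melanoma plus lisinopril mice carried a melanoma xenograft that induces cachexia and received the drug, and the control mice had a mock injection and no drug. Tissue was taken 49 days after implantation per the design text, although the extraction label also speaks of a time point of another tumour model. The age of 7 weeks and the 49 days could both hold at sampling only with implantation at birth. The time to which the age refers was not settled here. The tumour line, the dose and route of the drug, the start of treatment and the tumour size are not given in the labels. Since tumour and drug change together between these groups, their effects cannot be told apart in this comparison. Levels in mice with melanoma alone (4 libraries) and lisinopril alone (3 libraries) are given beside it where they help to read a gene.

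Cachexia is a wasting of muscle and fat driven by a tumour. In wasting muscle, cytokines of the interleukin-6 family act through the factor STAT3, and glucocorticoids and low insulin signalling act through FoxO factors, which switch on ubiquitin ligases such as atrogin-1 and MuRF1 that mark muscle proteins for breakdown. Lisinopril blocks angiotensin-converting enzyme, which makes angiotensin II, a hormone that raises blood pressure and that can itself promote muscle loss. Blocking an enzyme's activity does not by itself lower its mRNA.

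The libraries were unequal, and this bears on every result below. Between 10881 and 11275 genes reached 1 TPM in the melanoma plus lisinopril libraries and between 10610 and 12363 in the controls, and sequencing depth is unknown because TPM keep no totals. Markers of skeletal muscle summed to 93541 to 118132 TPM in melanoma plus lisinopril and 69790 to 105996 TPM in control muscle, and all 10 were measured. The library control 2 stood apart from the other controls. Its mean correlation with its own group was 0.937, against 0.966 to 0.968 for the other controls. Erythrocyte markers summed to 165 to 2221 TPM in the melanoma plus lisinopril libraries, 24052 TPM in control 2 and 426 to 1644 TPM in the other controls. Interferon-stimulated genes summed to 1462 TPM in control 2, T and NK cell markers to 93.0 TPM and MHC class I genes to 1434 TPM. The other 3 controls lay at 115 to 159, 2.33 to 3.85 and 409 to 522 TPM for these lists. The library melanoma plus lisinopril 3 lay slightly closer to controls 1, 3 and 4 (mean r = 0.972) than to the other libraries of its own group (0.967). Among the 8 libraries its highest correlation was with control 4 (0.979), and among all 15 it was with melanoma 4 (0.981) and melanoma 1 (0.980). Melanoma plus lisinopril 4 was the farthest from those controls (0.938) and had the lowest share of mitochondrial transcripts, 28.5% of TPM against 40.8% to 43.5% in the other libraries of its group. The melanocyte genes Mlana, Pmel, Tyrp1 and Dct stayed at or below 0.327 TPM in all 8 libraries and Tyr was listed at 0.

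**Figure D1:**
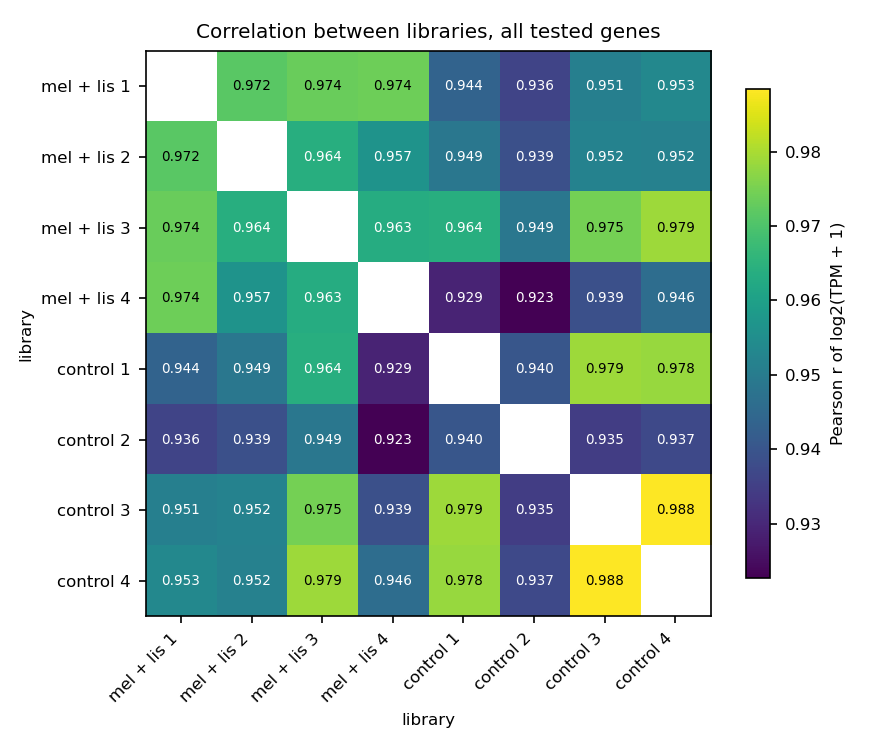
Pearson correlation of log2(TPM + 1) over all tested genes between the 4 melanoma plus lisinopril (mel + lis) and the 4 control libraries; colour and the printed number give r, and the diagonal is blank. Control 2 correlates at 0.949 or less with every other library, and melanoma plus lisinopril 3 reaches 0.979 with control 4.

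In a limma fit of log2(TPM + 1) to these 8 libraries, 1 gene of 11576 passed an adjusted p of 0.05, 0.00864% of the genes tested. It was Timp4, which was higher in melanoma plus lisinopril muscle. No gene passed in the lower direction (0.0%). At an unadjusted p below 0.05 there were 961 higher genes (8.3%) and 714 lower genes (6.17%), together 14.5%. In 403 genes (3.48%) all 4 melanoma plus lisinopril libraries lay above all 4 controls, and in another 403 (3.48%) all lay below, together 6.96%. Over all tested genes the median log2 fold change came to 0.04. It was -0.08 when TPM were recomputed without the mitochondrial genome, so small changes of a list's median depend on the scaling. The filter on low levels lets in genes that are high in 1 group alone. Of the genes named below, Krt18, Tmem8c, Tap1, Psmb9, Angptl4, Agtr2 and Tnc had fewer than 3 melanoma plus lisinopril libraries at 1 TPM. They entered the fit through the controls, where they were high. Wfdc21 entered it through melanoma plus lisinopril, where it was high, and Saa3 did so in the main. The p-values of all these genes support nothing by themselves.

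The count of called genes depended on single libraries. Without control 2 it was 187 of 11399 genes (1.64%), 124 higher (1.09%) and 63 lower (0.553%). Without melanoma plus lisinopril 3 it was 97 (0.843%), 72 higher (0.625%) and 25 lower (0.217%), and 49 genes were called in both cases, 26.2% of the longer and 50.5% of the shorter list. Leaving out any one of the other 6 libraries left 0 or 1 call. A fit with sample quality weights, in which control 2 had the lowest weight (0.31) and control 4 the highest (4.62), called 737 genes (6.37%), 382 higher (3.3%) and 355 lower (3.07%). A fit that took its spread from all 15 libraries called 33 (0.285%), 22 higher (0.19%) and 11 lower (0.095%). Of the calls without control 2, 66.3% were higher, but this share was 45.1% after median-ratio rescaling, 48.9% after quantile normalization and 49.7% without the mitochondrial genome. In what follows, a gene is said to pass without control 2 where its adjusted p in that fit was below 0.05. That fit was singled out because control 2 stood apart and does not replace the fit of all 8 libraries.

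**Figure D2:**
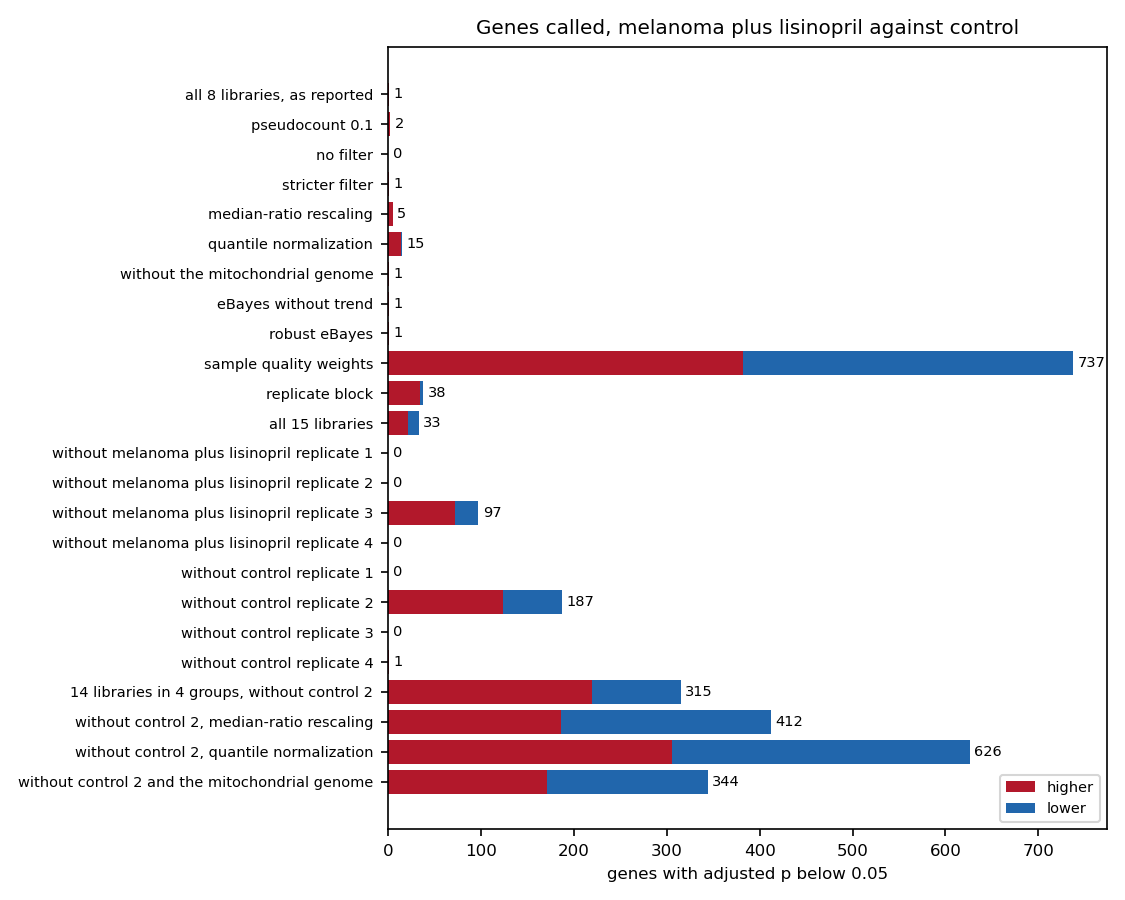
Number of genes with an adjusted p below 0.05 in melanoma plus lisinopril against control under each setting, split into higher (red) and lower (blue) in melanoma plus lisinopril. The bar is 1 gene with all 8 libraries, 187 without control 2, 97 without melanoma plus lisinopril 3 and 737 with quality weights.

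**Figure D3:**
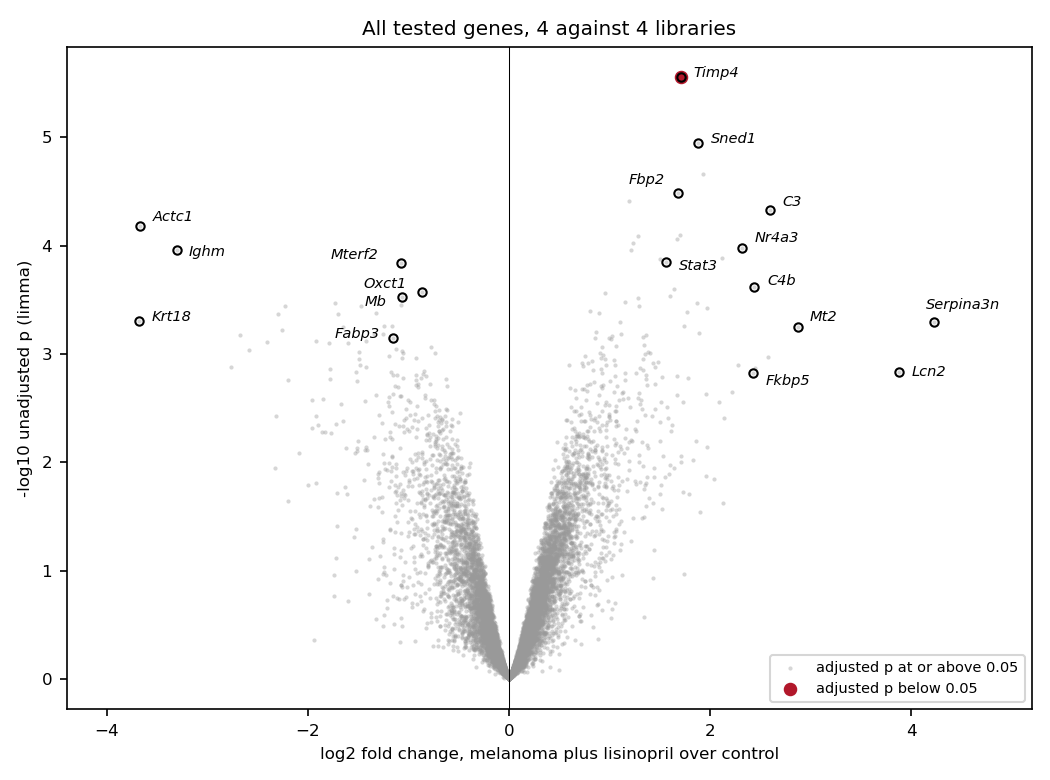
Log2 fold change (melanoma plus lisinopril over control, x axis) against -log10 of the unadjusted limma p (y axis) for all 11576 tested genes, with genes described in the text circled. Timp4 (red) is the single gene past the threshold, at a log2 fold change of 1.71.

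Timp4 encodes a tissue inhibitor of metalloproteinases, a secreted protein that restrains the enzymes that degrade extracellular matrix, and is known for its expression in heart and skeletal muscle. The gene lies on the minus strand of chromosome 6 at chr6:115241892-115252205 in mm10, inside the span of the synapsin gene Syn2, which is on the plus strand (chr6:115134902-115282006). Syn2 stood at 0.356 to 1.29 TPM in the 8 libraries, and whether the authors' quantification used strand is not given in the sources used here. Its promoter is shown because it is the only gene past the threshold. The 250 bases before its RefSeq start (GRCm38.p6, chr6:115252206-115252455, minus strand) held none of the 3 motifs searched on both strands, so no letter is in capitals. The motifs were TGCNCNC, the hormone response element core ACANNNTGT and the STAT motif TTCNNNGAA. TGCNCNC, with any base at N, is a loose form of the metal response element core. A match of it is not by itself such an element.
Timp4: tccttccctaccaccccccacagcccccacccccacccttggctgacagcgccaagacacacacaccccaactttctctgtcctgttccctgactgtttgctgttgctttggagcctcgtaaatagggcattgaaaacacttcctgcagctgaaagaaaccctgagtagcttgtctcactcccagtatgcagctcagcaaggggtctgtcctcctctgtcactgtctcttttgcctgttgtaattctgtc
The shares of all 32851 promoter windows of the same length that held these motifs were 44.4%, 5.84% and 7.02%.

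Timp4 stood at 26.6, 21.9, 18.5 and 21.4 TPM in the 4 melanoma plus lisinopril libraries and at 5.71, 7.60, 4.52 and 6.49 TPM in the 4 controls. Every melanoma plus lisinopril library was above every control, and both unusual libraries, melanoma plus lisinopril 3 and control 2, lay with their own group. The means were 22.1 ± 3.36 and 6.08 ± 1.30 TPM (SD, n = 4 each), a log2 fold change of 1.71 ± 0.19 (SE, 95% interval 1.30 to 2.12, adjusted p = 0.0321). Mice with melanoma alone had 25.6, 23.3, 6.81 and 13.7 TPM and mice with lisinopril alone 6.98, 6.36 and 4.47 TPM. In a direct test over 15 libraries melanoma plus lisinopril minus melanoma alone was 0.47 (interval -0.18 to 1.12, adjusted p = 0.9999). Single libraries decided the call in both directions. The adjusted p was 0.0165 without control 2 and 0.00817 without melanoma plus lisinopril 3. It was 0.230, 0.151 and 0.199 when melanoma plus lisinopril 1, 2 or 4 was left out, 0.141, 0.0954 and 0.0854 when control 1, 3 or 4 was left out, and 0.155 with no filter on low genes. The log2 fold change stayed between 1.60 and 1.86 in all settings run. The other members of the family did not show this pattern. Timp1 averaged 2.95 ± 1.31 against 6.52 ± 6.59 TPM, Timp2 31.7 ± 8.53 against 39.8 ± 13.98 TPM and Timp3 47.4 ± 12.2 against 38.5 ± 11.5 TPM in melanoma plus lisinopril and control muscle (SD, n = 4 each), with overlapping groups and adjusted p of 0.548, 0.699 and 0.608.

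Next to Timp4, the higher genes with the lowest p that kept the groups apart were Sned1, 6430548M08Rik, Fbp2 and Lpin1, none of which passed the threshold with all 8 libraries. Sned1, a secreted matrix glycoprotein, stood at 13.0, 11.8, 6.21 and 13.0 TPM in melanoma plus lisinopril and at 2.71, 2.34, 1.74 and 1.92 TPM in control muscle. The groups did not overlap, and melanoma plus lisinopril 3 was the lowest of its group. The log2 difference was 1.88 ± 0.24 (adjusted p = 0.0655, and 0.0165 without control 2). The RIKEN gene 6430548M08Rik had 27.0, 27.9, 14.8 and 19.5 TPM in melanoma plus lisinopril and 6.63, 6.24, 2.99 and 4.63 TPM in control muscle (adjusted p = 0.0842). Fbp2, the muscle fructose-bisphosphatase of glycogen resynthesis, had 176, 185, 197 and 230 TPM in melanoma plus lisinopril and 44.4, 67.9, 46.0 and 96.0 TPM in control muscle (adjusted p = 0.0891). Each of these genes had its groups apart. Lpin1, a phosphatidate phosphatase of fat metabolism that also acts in the nucleus, averaged 182 ± 36.5 TPM in melanoma plus lisinopril and 78.6 ± 7.94 TPM in control muscle (SD, n = 4 each, log2 difference 1.19, adjusted p = 0.0891). All 4 passed without control 2. The same held for Scn3b, a sodium channel subunit, with 3.41 to 9.67 TPM in melanoma plus lisinopril and 0.695 to 1.36 TPM in control muscle, and for Asb11, an adaptor of a ubiquitin ligase, with 166 to 272 and 67.2 to 105 TPM.

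**Figure D4:**
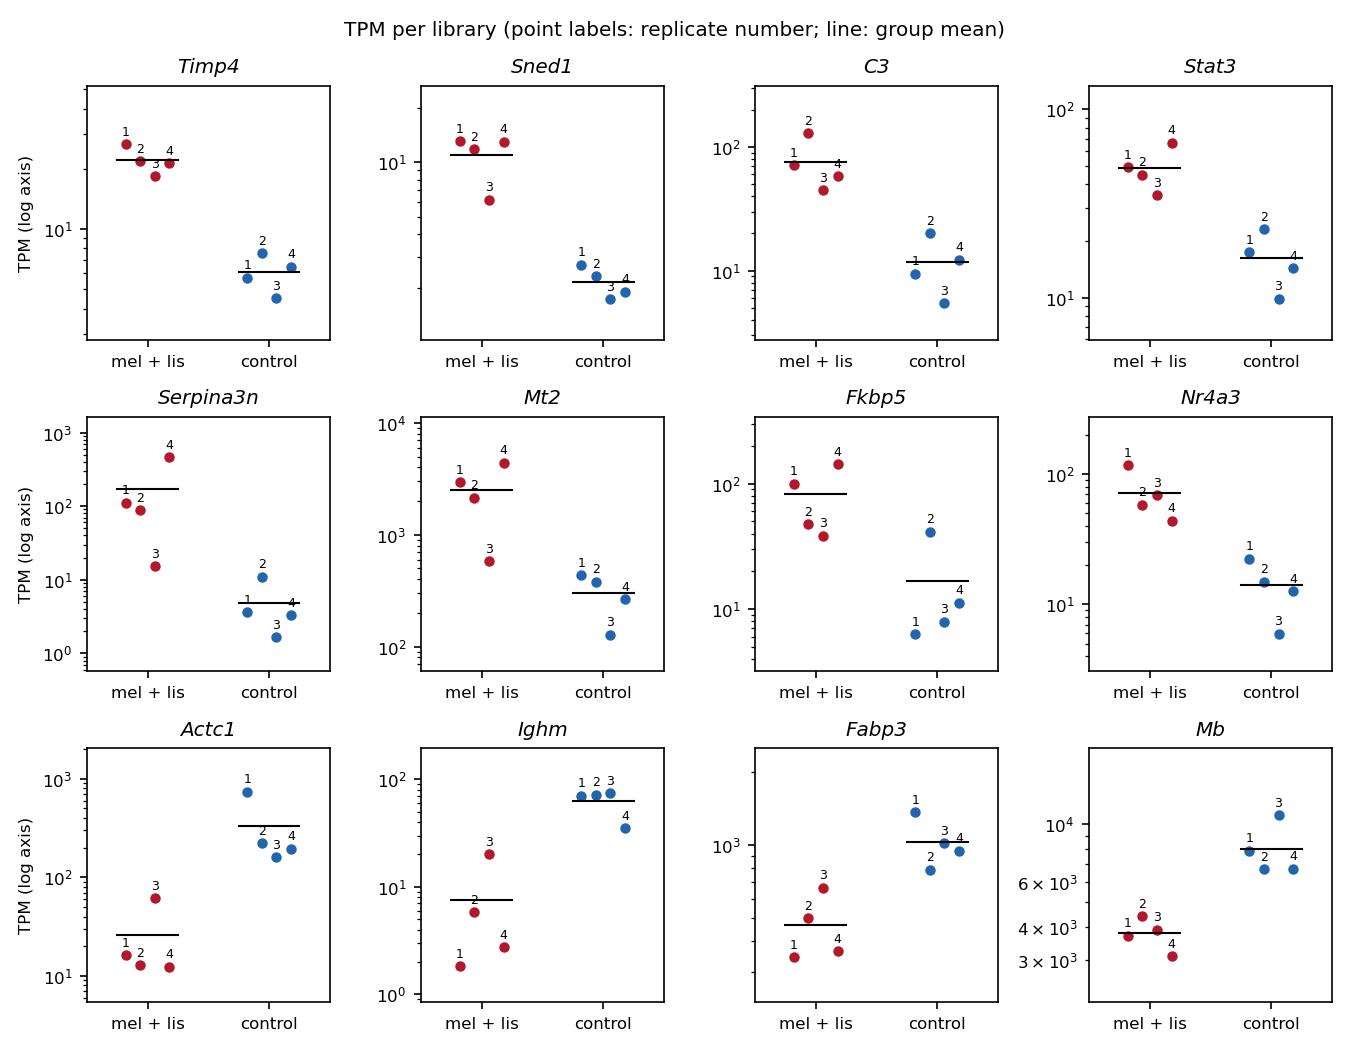
TPM on a log axis for 12 genes in each melanoma plus lisinopril (mel + lis, left) and control (right) library; points carry the replicate number and lines are group means (n = 4 each). In the upper row each of the 4 genes has its groups apart, while melanoma plus lisinopril 3 is the library nearest to the controls for Serpina3n, Mt2, Actc1 and Ighm.

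Acute-phase and complement genes, which inflammation induces chiefly in liver but also in muscle, were the list with the largest number of higher members at an unadjusted p below 0.05. Of 28 listed genes 22 were tested, and 14 had an unadjusted p below 0.05 with a higher mean, none with a lower one, against 8.3% and 6.17% of all genes. Among the 14 was Saa3, with 0.870 to 4.13 TPM in melanoma plus lisinopril and 0 to 1.03 TPM in control muscle. It met the filter mainly through melanoma plus lisinopril and was not tested once control 2 was left out. Its place in that count supports nothing by itself. The median log2 fold change of the 22 tested genes was 0.88, against 0.04 for all genes. In 5 of the 22 all melanoma plus lisinopril libraries lay above all controls, against 3.48% of all genes. None passed with all 8 libraries. Lbp, Hp, Serpina3n, C4b and C3 passed without control 2, where 1.09% of all genes were called higher. C3, the central complement component, had 70.9, 129, 44.6 and 58.2 TPM in melanoma plus lisinopril and 9.46, 20.02, 5.48 and 12.3 TPM in control muscle. The lowest library of the tumour group was more than double the highest control. Its log2 difference was 2.60 ± 0.39 (adjusted p = 0.0905, and 0.0165 without control 2). Serpina3n, a secreted protease inhibitor, had the widest span, with 112, 88.7, 15.3 and 465 TPM in melanoma plus lisinopril and 3.61, 11.0, 1.66 and 3.28 TPM in control muscle. Melanoma plus lisinopril 3 was only a little above control 2, and melanoma plus lisinopril 4 was the highest by far (log2 difference 4.22 ± 0.85, adjusted p = 0.138). Lcn2, an iron-binding protein of the acute phase, had 167, 28.2, 5.76 and 143 TPM in melanoma plus lisinopril and 1.47, 5.95, 0.901 and 2.13 TPM in control muscle, so control 2 reached the lowest tumour library (adjusted p = 0.146).

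The STAT3 branch of cytokine signalling showed the same kind of separation in a few genes. Stat3 itself, the transcription factor of the pathway, had 49.5, 44.9, 35.0 and 66.7 TPM in melanoma plus lisinopril and 17.5, 23.1, 9.86 and 14.3 TPM in control muscle, without overlap (log2 difference 1.56 ± 0.27, adjusted p = 0.0931, and 0.0165 without control 2). Osmr, the oncostatin M receptor, averaged 7.21 ± 2.51 TPM in melanoma plus lisinopril and 2.09 ± 1.41 TPM in control muscle (SD, n = 4 each) and overlapped only through control 2. It passed without that library (adjusted p = 0.0211). Socs3, the feedback inhibitor, ranged from 31.1 to 276 TPM in melanoma plus lisinopril and from 14.01 to 69.2 TPM in control muscle, with overlap (adjusted p = 0.256). Of the 20 tested genes of this list 6 were higher and 1 lower at an unadjusted p below 0.05. The shares over all genes were 8.3% and 6.17%, and the list median was 0.26.

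Metallothioneins, small metal-binding proteins induced by zinc and glucocorticoids, differed widely among the treated tumour-bearing mice. Mt2 had 2940, 2141, 581 and 4419 TPM in melanoma plus lisinopril and 437, 380, 128 and 264 TPM in control muscle. The groups did not overlap, but melanoma plus lisinopril 3 was much nearer to control 1 than to the other 3 libraries of its group. The log2 difference was 2.87 ± 0.58 (adjusted p = 0.138, and 0.0456 without control 2). Mt1 had 2994, 1926, 496 and 4052 TPM in melanoma plus lisinopril and 415, 407, 176 and 306 TPM in control muscle (log2 difference 2.58 ± 0.57, adjusted p = 0.143, and 0.0564 without control 2). The promoters of this neighbouring pair are shown because both genes had the same order of libraries in the tumour group, and that of Serpina3n because it had the largest positive difference among the genes named here. They were chosen after values and motif matches were seen. Capitals mark a match of TGCNCNC or ACANNNTGT on either strand in the 250 bases before the RefSeq start (GRCm38.p6). Mt1 is at chr8:94178839-94179088, plus strand, with 1 match of each motif, Mt2 at chr8:94172368-94172617, plus strand, with 5 matches of TGCNCNC, and Serpina3n at chr12:104406458-104406707, plus strand, with 1 match of ACANNNTGT.
Mt1: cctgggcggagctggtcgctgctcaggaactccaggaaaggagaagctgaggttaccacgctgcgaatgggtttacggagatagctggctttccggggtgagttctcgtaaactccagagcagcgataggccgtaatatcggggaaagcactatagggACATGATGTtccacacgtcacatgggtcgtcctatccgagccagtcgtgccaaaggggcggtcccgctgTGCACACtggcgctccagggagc
Mt2: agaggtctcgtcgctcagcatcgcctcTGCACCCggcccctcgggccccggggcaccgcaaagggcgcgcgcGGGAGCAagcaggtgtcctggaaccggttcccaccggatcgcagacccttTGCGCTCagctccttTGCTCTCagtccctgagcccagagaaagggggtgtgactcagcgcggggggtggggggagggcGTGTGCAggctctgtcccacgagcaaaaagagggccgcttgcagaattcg
Serpina3n: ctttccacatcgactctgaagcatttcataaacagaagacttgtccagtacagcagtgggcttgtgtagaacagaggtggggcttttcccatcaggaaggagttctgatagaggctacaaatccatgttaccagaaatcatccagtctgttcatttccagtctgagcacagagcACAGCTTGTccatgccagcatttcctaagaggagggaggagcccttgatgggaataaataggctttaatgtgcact
No match of TTCNNNGAA lay in these windows. In all windows, 0.344% had 5 or more matches of TGCNCNC. Of 121 genes tabulated for this account 79 had a promoter entry. Among these TGCNCNC was found in 48.1%, ACANNNTGT in 7.59% and TTCNNNGAA in 6.33%, against 44.4%, 5.84% and 7.02% of all windows.

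Glucocorticoid targets as a list had 8 higher members and 1 lower at an unadjusted p below 0.05 among 20 tested. The shares over all genes were 8.3% and 6.17%, and the list median was 0.63. Fkbp5, a chaperone partner of the glucocorticoid receptor and one of its most sensitive targets, had 100, 47.6, 38.4 and 143 TPM in melanoma plus lisinopril and 6.32, 41.4, 7.91 and 11.2 TPM in control muscle. Control 2 was the only control inside the range of the tumour group (log2 difference 2.42 ± 0.56, adjusted p = 0.146, and 0.0165 without control 2). Zbtb16, a zinc finger repressor induced by glucocorticoids, had 61.9, 50.6, 51.1 and 87.0 TPM in melanoma plus lisinopril and 16.9, 34.5, 12.0 and 20.8 TPM in control muscle, without overlap (adjusted p = 0.127, and 0.0165 without control 2). Tsc22d3, a leucine zipper protein induced by glucocorticoids, was also among the higher members, with 198, 120, 129 and 227 TPM in melanoma plus lisinopril and 97.4, 132, 71.0 and 106 TPM in control muscle. It too overlapped through control 2 alone (adjusted p = 0.256, and 0.109 without control 2). Per1 and Klf15 were not among them and overlapped between the groups, with adjusted p of 0.643 and 0.672. Angptl4, an inhibitor of lipoprotein lipase, was the lower member, at 0.422 to 0.876 TPM in melanoma plus lisinopril and 1.39 to 3.52 TPM in control muscle. It entered the fit through the controls, where it was high, so its place in that count supports nothing by itself.

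**Figure D5:**
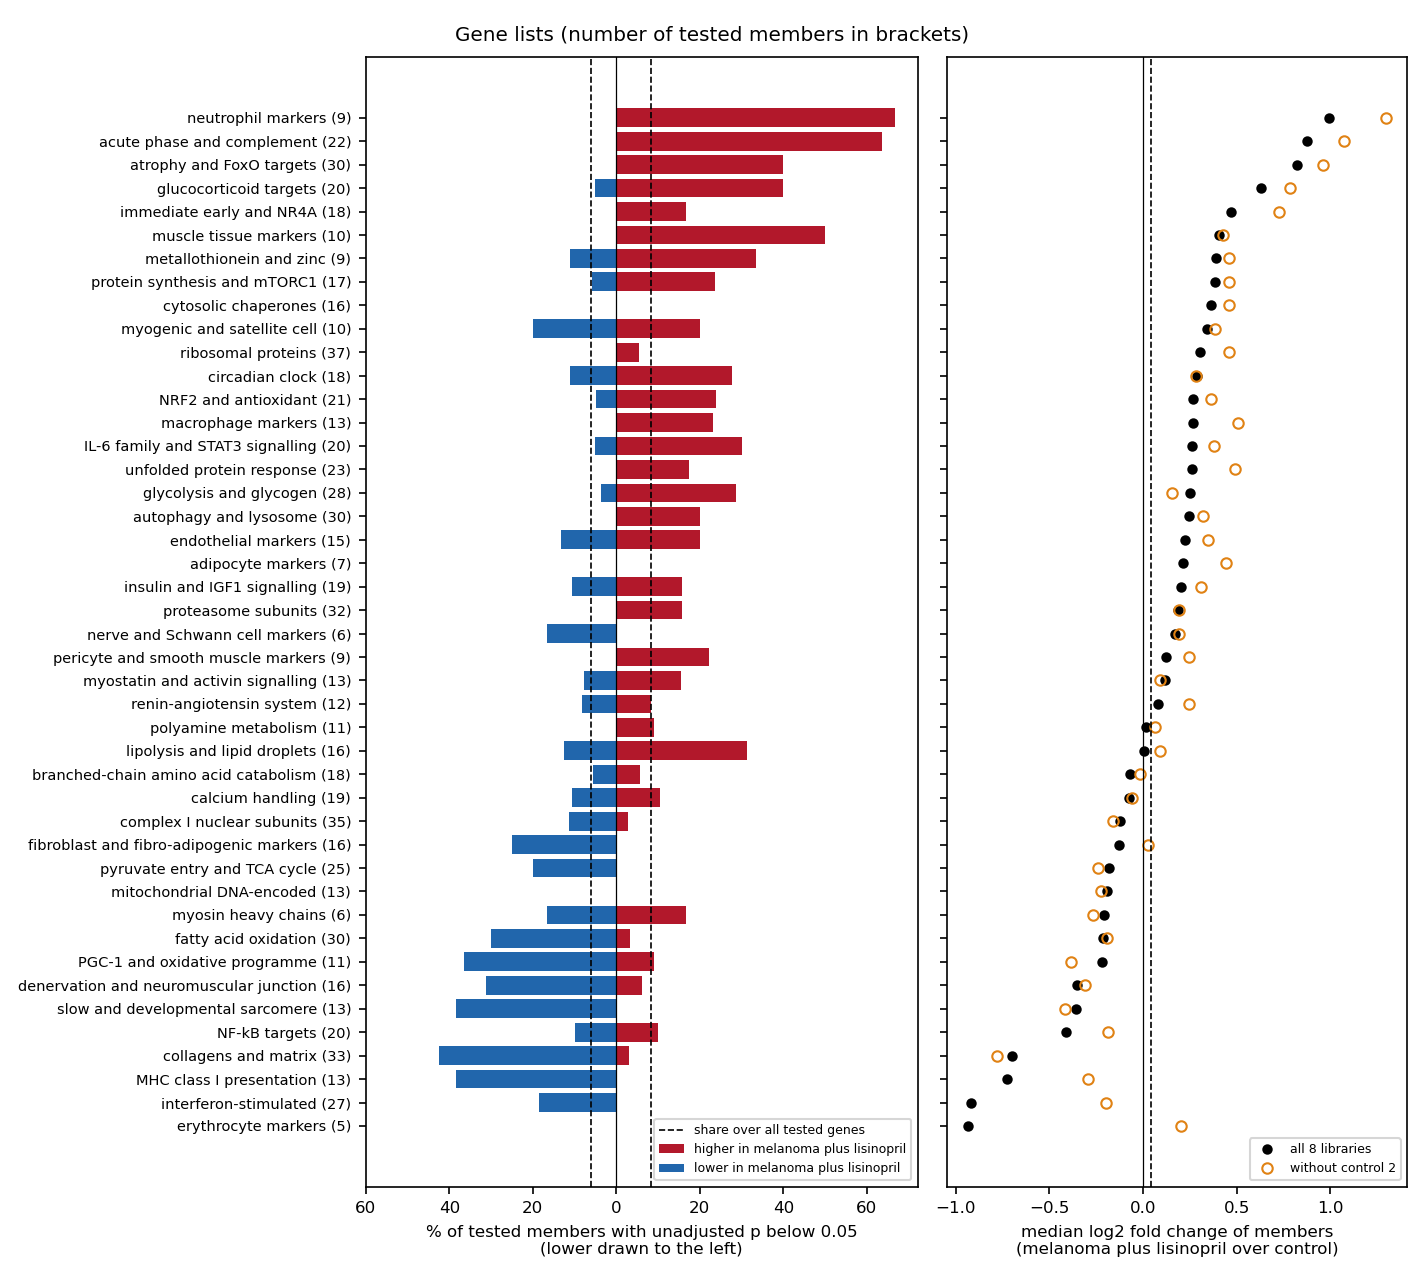
Left, share of each list's tested members with an unadjusted p below 0.05, higher (red, to the right) or lower (blue, to the left) in melanoma plus lisinopril, with dashed lines at the shares over all genes (8.3% and 6.17%). Right, median log2 fold change with all 8 libraries (filled) and without control 2 (open), with a dashed line at the median of all genes (0.04); lists with fewer than 5 tested members are left out. Neutrophil and acute-phase lists have the highest medians, and the interferon and erythrocyte medians move most when control 2 is left out.

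Genes of the atrophy programme showed higher means but a wide spread. Of 30 tested genes 12 were higher at an unadjusted p below 0.05 and none lower, against 8.3% and 6.17% of all genes. The median was 0.82. In 5 all melanoma plus lisinopril libraries lay above all controls, against 3.48% of all genes. The lists share members, so their counts are not separate support. Of the 12, Mt1 and Mt2 are the metallothioneins above, and Foxo1 and Mt2 were also counted as glucocorticoid targets. Gabarapl1, Bnip3, Map1lc3b and Sqstm1 were also counted in the autophagy list below. Lcn2 was counted both as acute-phase gene and as glucocorticoid target. The ubiquitin ligases that define the programme did not pass in any fit with or without control 2. Trim63 (MuRF1) had 1044, 228, 360 and 1563 TPM in melanoma plus lisinopril and 293, 341, 174 and 184 TPM in control muscle (log2 difference 1.34, interval 0.14 to 2.55, adjusted p = 0.3004). Fbxo32 (atrogin-1) had 357, 66.2, 150 and 777 TPM in melanoma plus lisinopril and 139, 230, 85.0 and 89.9 TPM in control muscle (0.87, interval -0.57 to 2.31, adjusted p = 0.577). In both genes libraries 1 and 4 of the tumour group were high, and library 2 lay among the controls for Trim63 and below them for Fbxo32. Foxo1, a factor that drives these ligases, had 29.8, 9.55, 17.5 and 46.2 TPM in melanoma plus lisinopril and 6.93, 8.59, 3.70 and 4.79 TPM in control muscle. Its groups did not overlap (1.78 ± 0.42, adjusted p = 0.147, and 0.0555 without control 2). Eif4ebp1, an inhibitor of translation initiation that FoxO induces, averaged 333 ± 220 TPM in melanoma plus lisinopril and 70.2 ± 54.6 TPM in control muscle (SD, n = 4 each, adjusted p = 0.161, and 0.0291 without control 2). Sqstm1, an autophagy receptor, ranged from 325 to 687 TPM in melanoma plus lisinopril and from 142 to 299 TPM in control muscle without overlap (adjusted p = 0.172). Fam134b, a receptor for autophagy of the endoplasmic reticulum, ranged from 239 to 731 and from 123 to 220 TPM (adjusted p = 0.146, and 0.0481 without control 2). Cdkn1a, the cell cycle inhibitor p21, averaged 123 ± 84.8 TPM in melanoma plus lisinopril and 51.4 ± 21.1 TPM in control muscle, with overlap (adjusted p = 0.361). Autophagy and lysosome genes had 6 higher members of 30 and none lower at an unadjusted p below 0.05. Proteasome subunits had 5 of 32 higher and none lower at that p, against 8.3% and 6.17% of all genes. The medians of these lists were 0.24 and 0.19, and after quantile normalization 0.17 and 0.0028.

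On the lower side stood genes of oxygen storage and oxidative fuel use. Mb, myoglobin, had 3720, 4430, 3925 and 3104 TPM in melanoma plus lisinopril and 7891, 6692, 10832 and 6726 TPM in control muscle. Every melanoma plus lisinopril library was below every control (log2 difference -1.06 ± 0.20, adjusted p = 0.127, and 0.0334 without control 2). Oxct1, the enzyme that lets muscle use ketone bodies, had 113, 120, 135 and 94.3 TPM in melanoma plus lisinopril and 233, 191, 234 and 185 TPM in control muscle (-0.87 ± 0.16, adjusted p = 0.127, and 0.0441 without control 2). Fabp3, the fatty acid carrier of heart and oxidative muscle, had 344, 500, 667 and 364 TPM in melanoma plus lisinopril and 1363, 790, 1015 and 946 TPM in control muscle (-1.16 ± 0.24, adjusted p = 0.138, and 0.0411 without control 2). In both genes the groups did not overlap. Mterf2, a mitochondrial transcription factor, averaged 9.70 ± 1.39 TPM in melanoma plus lisinopril and 21.7 ± 4.16 TPM in control muscle (SD, n = 4 each, adjusted p = 0.0931, and 0.0165 without control 2). Of 30 tested fatty acid oxidation genes 9 were lower and 1 higher at an unadjusted p below 0.05, against 6.17% and 8.3% of all genes. In 11 the melanoma plus lisinopril libraries lay below all controls, against 3.48% of all genes. The differences were small for most, with a list median of -0.21. Cpt2, of the carnitine shuttle, averaged 47.9 ± 3.44 TPM in melanoma plus lisinopril and 60.8 ± 6.15 TPM in control muscle (adjusted p = 0.312). Pdk4, which blocks the entry of pyruvate into the mitochondrion's fuel cycle, averaged 770 ± 490 TPM in melanoma plus lisinopril and 543 ± 190 TPM in control muscle (adjusted p = 0.686). Mitochondrially encoded genes had no member at an unadjusted p below 0.05 in either direction.

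Glycolysis and glycogen genes pointed the other way, with a median of 0.25. Of 28 tested 8 were higher and 1 lower at an unadjusted p below 0.05, against 8.3% and 6.17% of all genes. Ppp1r3c, which targets a phosphatase to glycogen, had 847, 1097, 366 and 1333 TPM in melanoma plus lisinopril and 241, 265, 189 and 298 TPM in control muscle, without overlap (1.74 ± 0.35, adjusted p = 0.138, and 0.0517 without control 2). Hk2, the insulin-regulated hexokinase of muscle, had 338, 333, 139 and 145 TPM in melanoma plus lisinopril and 130, 89.2, 115 and 118 TPM in control muscle. Libraries 1 and 2 of the tumour group were high and libraries 3 and 4 lay just above the controls (adjusted p = 0.230). Ppargc1a, a coactivator of oxidative genes, had the same pattern in part, with 59.7, 50.1, 21.6 and 13.8 TPM in melanoma plus lisinopril and 15.8, 13.5, 15.4 and 14.98 TPM in control muscle (adjusted p = 0.290).

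Among the contractile genes named here the widest difference was in an actin of developing muscle. Actc1, cardiac actin, which skeletal muscle uses before birth and in regeneration, had 16.2, 12.8, 61.6 and 12.4 TPM in melanoma plus lisinopril and 741, 223, 161 and 195 TPM in control muscle. The groups did not overlap, melanoma plus lisinopril 3 was the highest of its group and control 1 the highest of all (-3.67 ± 0.57, 12.7-fold lower, adjusted p = 0.0914, and 0.0213 without control 2). The 13 slow and developmental sarcomere genes had 6 fold changes above 0 and 7 below, with a median of -0.36. At an unadjusted p below 0.05, 5 of them were lower, against 6.17% of all genes. The myogenic and satellite cell list had 8 of 10 above 0 and a median of 0.34. At an unadjusted p below 0.05 this list had 2 higher and 2 lower, against 8.3% and 6.17% of all genes. In it the myogenic factor Myod1 averaged 31.4 ± 18.3 TPM in melanoma plus lisinopril and 16.3 ± 4.42 TPM in control muscle, and Myog 40.6 ± 33.9 and 35.0 ± 28.5 TPM (SD, n = 4 each, adjusted p = 0.470 and 0.934). Some single genes of immature fibres had lower means, chosen after their values were seen. Tmem8c (myomaker), which fuses myoblasts, had 0.254 to 2.25 TPM in melanoma plus lisinopril and 3.71 to 18.7 TPM in control muscle (adjusted p = 0.127), and Myl4, the embryonic light chain, had 1.59 to 6.81 and 8.15 to 39.3 TPM (adjusted p = 0.192). Krt18, a keratin of simple epithelia, had 0.274 to 1.62 TPM in melanoma plus lisinopril and 122, 6.13, 9.46 and 26.8 TPM in control muscle, without overlap (-3.68 ± 0.73, adjusted p = 0.138, and 0.0211 without control 2). Krt18 and Tmem8c entered the fit through the controls, where they were high, so their p-values and separation support nothing by themselves. The controls themselves were far apart for Krt18, and control 1 was the highest control for Actc1, Krt18, Tmem8c and Myl4. Lisinopril alone gave 133, 442 and 108 TPM of Actc1 and 0.106, 7.58 and 0.0574 TPM of Krt18, so its second library was also the high one in both.

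The fast myosin Myh4 (type IIb) had 11933, 11260, 15191 and 17891 TPM in melanoma plus lisinopril and 6480, 7195, 4077 and 10282 TPM in control muscle, without overlap (1.06 ± 0.28, adjusted p = 0.177). Myh1 (type IIx) averaged 5707 ± 957 TPM in melanoma plus lisinopril and 5274 ± 938 TPM in control muscle and changed sign with the scaling (0.12 ± 0.19). Myh2 (type IIa) averaged 339 ± 143 and 468 ± 123 TPM (adjusted p = 0.471). The slow genes Myh7, Myl2 and Tnnt1 were high in 1 library, melanoma plus lisinopril 4, with 59.3, 99.5 and 78.4 TPM. In the other 3 libraries of that group they lay at 0.244 to 6.25, 0.538 to 10.1 and 4.23 to 10.8 TPM, and in the controls at 0.416 to 1.47, 0.358 to 5.16 and 11.1 to 32.9 TPM.

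Matrix genes were mostly on the lower side. Of 33 tested collagen and matrix genes 14 were lower and 1 higher at an unadjusted p below 0.05, against 6.17% and 8.3% of all genes. Among the 14 was Tnc, with 0.206 to 0.648 TPM in melanoma plus lisinopril and 0.903 to 7.28 TPM in control muscle. It entered the fit through the controls, where it was high, so its place in that count supports nothing by itself. The list median was -0.70, no member passed with all 8 libraries, and none passed without control 2. Col1a1, the main chain of type I collagen, had 14.4, 24.9, 45.1 and 6.29 TPM in melanoma plus lisinopril and 194, 47.5, 35.5 and 43.7 TPM in control muscle, with overlap (-1.71 ± 0.62, adjusted p = 0.256). Postn, a matrix protein of repair, had 0.744 to 7.41 TPM in melanoma plus lisinopril and 7.43 to 63.5 TPM in control muscle (adjusted p = 0.181). In both genes control 1 was the highest. The higher gene was Lox, the enzyme that cross-links collagen, with 10.6 to 28.1 TPM in melanoma plus lisinopril and 3.07 to 9.69 TPM in control muscle (adjusted p = 0.181).

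Immune genes differed in both directions. In bulk tissue, fewer cells of a type and less RNA per cell cannot be told apart. Ighm, the constant region of the IgM heavy chain made by B cells, had 1.83, 5.79, 20.1 and 2.72 TPM in melanoma plus lisinopril and 70.5, 72.1, 74.9 and 35.3 TPM in control muscle. The groups did not overlap and control 4 was the lowest control (-3.31 ± 0.54, 9.90-fold lower, adjusted p = 0.0914, and 0.0334 without control 2). All 13 B and plasma cell markers together summed to 3.57 to 22.7 TPM in melanoma plus lisinopril, and to 42.5 to 222 TPM in control muscle or 42.5 to 82.5 TPM without control 2. Tfrc, the transferrin receptor for iron uptake, had 5.88, 25.0, 21.3 and 8.38 TPM in melanoma plus lisinopril and 124, 28.5, 134 and 126 TPM in control muscle, with control 2 the low control (adjusted p = 0.138, and 0.0165 without control 2). At an unadjusted p below 0.05, neutrophil markers had 6 of 9 tested members higher and none lower, against 8.3% and 6.17% of all genes. Among the 6 was Wfdc21, with 1.44 to 3.29 TPM in melanoma plus lisinopril and 0 to 1.26 TPM in control muscle. It entered the fit through melanoma plus lisinopril, where it was high, so its place in that count supports nothing by itself. The neutrophil markers had a median of 0.99. They summed to 36.2 to 196 TPM in melanoma plus lisinopril, and to 22.5 to 110 TPM in control muscle or 22.5 to 35.4 TPM without control 2. The acute-phase genes Lcn2 and Hp are also made by neutrophils, and the part of these cells in the levels above was not tested.

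Interferon and antigen presentation genes were on the lower side, and control 2 weighed on this. All 27 tested interferon-stimulated genes had a negative fold change, with a median of -0.92 that was -0.20 without control 2. An unadjusted p below 0.05 was found for 5 of them, against 6.17% of all genes on the lower side. Summed TPM were 75.0 to 127 in melanoma plus lisinopril and 115 to 159 in the 3 other controls, with overlap. Of 13 MHC class I presentation genes 5 were lower at an unadjusted p below 0.05, against 6.17% of all genes. The groups did not overlap in the same 5, against 3.48% of all genes lying below the controls. Both counts include Tap1 and Psmb9. These entered the fit through the controls, where they were high, so their p-values and separation support nothing by themselves. Tap1, the peptide transporter, had 0.484 to 1.38 TPM in melanoma plus lisinopril and 2.11 to 12.6 TPM in control muscle (adjusted p = 0.235, and 0.0744 without control 2). Psmb9, an immunoproteasome subunit, had 0.655 to 1.17 and 2.02 to 6.66 TPM (adjusted p = 0.186, and 0.0613 without control 2). The erythrocyte median was -0.93 with all libraries and 0.20 without control 2.

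Genes of the renin-angiotensin system, on which the drug acts, had 1 higher and 1 lower member at an unadjusted p below 0.05 among 12 tested. These counts are near the shares over all genes, 8.3% higher and 6.17% lower. Ace, the target of lisinopril, had 43.1, 38.2, 23.2 and 34.1 TPM in melanoma plus lisinopril and 17.9, 31.1, 5.31 and 11.0 TPM in control muscle. Control 2 overlapped with the tumour group, and the other 3 controls were below all of it (1.25 ± 0.43, interval 0.30 to 2.20, adjusted p = 0.243, and 0.0481 without control 2). Mice with melanoma alone had 50.6, 75.5, 37.1 and 26.0 TPM and mice with lisinopril alone 6.49, 8.96 and 8.26 TPM. Agt, the precursor of angiotensin, averaged 16.7 ± 8.22 TPM in melanoma plus lisinopril and 10.7 ± 4.46 TPM in control muscle (adjusted p = 0.538). The receptor gene Agtr1a averaged 1.58 ± 0.576 and 1.80 ± 0.572 TPM (adjusted p = 0.841). The second receptor gene, Agtr2, had 0.0379, 0.116, 0.177 and 0.0144 TPM in melanoma plus lisinopril and 2.52, 1.62, 0.558 and 1.15 TPM in control muscle, without overlap but at very low levels. It passed the filter only through the controls, was not tested once control 2 was left out, and is the 1 lower member counted above. Lisinopril alone gave 0.0336, 1.38 and 0.0121 TPM of Agtr2. The median of the 12 tested genes of this list was 0.08 and became -0.05 without the mitochondrial genome.

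Whether these genes also separated treated from untreated tumour-bearing mice was tested directly over all 15 libraries. Of 11923 genes 0 passed in limma, and 189 (1.59%) had an unadjusted p below 0.05, 65 higher (0.545%) and 124 lower (1.04%) in melanoma plus lisinopril. The intervals remained wide, so equal levels were not shown. For Stat3 the difference was 0.22 (interval -0.28 to 0.73), for C3 -0.36 (interval -1.14 to 0.43), for Mb 0.25 (interval -0.54 to 1.03), for Mt2 0.06 (interval -1.30 to 1.42) and for Actc1 -0.53 (interval -2.14 to 1.08). The intervals, which are not adjusted for the number of genes, were apart from 0 for Ppargc1a (0.01 to 1.66), Hk2 (0.06 to 1.19), Agtr1a (-1.02 to -0.06), Angptl4 (-0.96 to -0.05), Hadha of fatty acid oxidation (0.01 to 0.50) and Nr4a3, among the genes tabulated for this account. Nr4a3, an orphan nuclear receptor induced by muscle activity, had 117, 58.3, 69.1 and 43.9 TPM in melanoma plus lisinopril, 13.0, 15.6, 26.9 and 33.2 TPM in melanoma alone, 12.1, 18.4 and 6.54 TPM in lisinopril alone and 22.4, 14.9, 5.97 and 12.7 TPM in control muscle. All 4 melanoma plus lisinopril libraries were above every library of the other groups. Against melanoma alone the log2 difference was 1.66 (interval 0.79 to 2.53, adjusted p = 0.9999), and against control 2.32 ± 0.38 (adjusted p = 0.0914, and 0.0263 without control 2). It was singled out after its values were seen.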

How the data were processed

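RNA of tibialis anterior muscle was sequenced from stranded mRNA libraries, per the labels' protocols. The deposited values are TPM that the authors computed, with mm10 named as genome build in the submitters' processing notes. The sources used here name no aligner, quantification program, use of strand or annotation. TPM keep no depth, so no counting error could be given. The labels call the libraries biological replicates.

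Values were transformed to log2(TPM + 1), so fold changes of low genes are understated, and entered a model in limma (version 3.58.1, R 4.3.3, eBayes with trend, 6 residual degrees of freedom, two-sided, Benjamini-Hochberg over all 11576 tested genes, threshold 0.05). Fits were tested on simulated data. Melanoma plus lisinopril was tested against melanoma alone in a fit of 15 libraries with 4 group means. Python 3.11.15 with numpy 2.4.6, pandas 2.3.3 and matplotlib 3.10.9 made the tables and plots. Positions are from GENCODE and promoters from RefSeq, of the same build.

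The comparison, the 48 gene lists and the alternatives were chosen with earlier results of these data known. Named genes were up to 15 per direction past the threshold with the largest fold change, a mean in the higher group of 5 TPM or more and no overlap, filled to 5 by lowest p, up to 4 called members per list, and a panel of 30 genes. This gave 36 genes. Others given as examples were chosen after their values were seen, among them Scn3b, Asb11, Timp1, Timp2, Timp3, Krt18, Nr4a3, Tfrc, Zbtb16 and Agtr2.

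Alternatives were quantile normalization, median-ratio rescaling, TPM without the mitochondrial genome, no filter on low genes, a filter at a mean of 5 TPM, a pseudocount of 0.1, eBayes without trend or robust, quality weights, a replicate block, all 15 libraries, and leaving out each library. A fit of 14 libraries without control 2, and the 3 rescalings without control 2, were added after the data were seen.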

Additional observations from a re-analysis of the deposited data

Results flagged for a closer look

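In 4 genes 1 library of a group of 4 stood far from the other 3 on the log2 scale, with its gap to the nearest library a larger part of the group's range than Dixon's 95% critical value for groups of that size. The 36 named genes gave 72 groups, and chance flags about 1 in 20 groups, so 4 is about what chance gives. For Sned1 it was melanoma plus lisinopril 3 (ratio 0.862), at 6.21 TPM against 11.8 to 13.0 TPM in the other libraries of its group. For Actc1 it was also melanoma plus lisinopril 3 (ratio 0.837), at 61.6 TPM against 12.4 to 16.2 TPM. In both genes that library was the nearest of its group to the controls. For Ighm it was control 4 (ratio 0.919), at 35.3 TPM against 70.5 to 74.9 TPM in the other controls. For Col1a1 it was control 1 (ratio 0.83), at 194 TPM against 35.5 to 47.5 TPM.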

How the results depend on the processing

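The number of genes called in melanoma plus lisinopril against control was 1 and moved to 2 with a pseudocount of 0.1, 0 with no filter (2283 genes at an unadjusted p below 0.05 in limma), 5 after median-ratio rescaling, 15 after quantile normalization, 737 with quality weights and 33 with the spread of all 15 libraries. It stayed at 1 with the stricter filter, without the mitochondrial genome, and with eBayes robust or without trend. Leaving out 1 library gave 0 to 187. Counts of 0 came without melanoma plus lisinopril 1, 2 or 4 and without control 1 or 3, with 1090 to 1573 genes at an unadjusted p below 0.05. Without control 4 the single gene was Fbp2 (adjusted p = 0.0403). Settings added after the data were seen gave 315 with 14 libraries in 4 groups without control 2, and, also without it, 412 after median-ratio rescaling, 626 after quantile normalization and 344 without the mitochondrial genome. The cause was not tested. With the replicate number as a block the count was 38, 35 higher and 3 lower. Deviations of same-numbered libraries correlated at -0.0094, 0.0911, 0.104 and 0.170, and 1 of 4 correlated best with its own number, so the numbers were not taken to pair the mice.

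Of the 36 named genes 20 were called without control 2, 23 with quality weights and 18 without melanoma plus lisinopril 3. Only the log2 fold change of Myh1 turned its sign, to -0.0168 without the mitochondrial genome and, with control 2 left out, to -0.0266 after median-ratio rescaling and -0.031 without the mitochondrial genome. Against melanoma alone limma called 0 genes in every setting run, with 91 to 774 at an unadjusted p below 0.05. TPM hold no depth, so counting noise of genes near 1 TPM could not be judged.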

Other observations

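Ribosomal protein and chaperone genes had few members at a low p. Of 37 tested ribosomal protein genes 36 had a positive fold change with a median of 0.31, but 2 had an unadjusted p below 0.05, and after quantile normalization the median was 0.11. Cytosolic chaperones had a median of 0.36 and no member at an unadjusted p below 0.05. Over all genes the shares at an unadjusted p below 0.05 were 8.3% higher and 6.17% lower, and no list was tested against them. Clock genes had 5 higher and 2 lower of 18 tested at that p, with a median of 0.29. Among them Nfil3, a repressor of the clock that glucocorticoids and cytokines can induce, had 219, 129, 55.1 and 347 TPM in melanoma plus lisinopril and 31.0, 52.2, 16.4 and 33.7 TPM in control muscle, and melanoma plus lisinopril 3 was just above control 2 (log2 difference 2.27 ± 0.52, adjusted p = 0.146, and 0.0471 without control 2). Atf4, the factor of the integrated stress response, averaged 338 ± 86.2 TPM in melanoma plus lisinopril and 161 ± 51.8 TPM in control muscle (SD, n = 4 each, adjusted p = 0.151, and 0.0402 without control 2).

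Further genes that passed without control 2 but not with all 8 libraries were lower for Ccnd1, cyclin D1 of cell cycle entry, with 0.163 to 1.41 TPM in melanoma plus lisinopril and 3.57 to 10.4 TPM in control muscle (adjusted p = 0.138, and 0.0430 without control 2), and for Grb14, an inhibitor of the insulin receptor, with 3.24 to 7.24 and 5.69 to 14.9 TPM (adjusted p = 0.172, and 0.0211 without control 2). They were higher for Plin4, a coat protein of lipid droplets, with 202 to 473 TPM in melanoma plus lisinopril and 98.9 to 216 TPM in control muscle (adjusted p = 0.166, and 0.0481 without control 2), and for Flt1, a receptor of the vascular growth factor VEGF, with 18.0 to 25.1 and 9.25 to 19.3 TPM (adjusted p = 0.215, and 0.0445 without control 2).

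The neuromuscular junction list had a median of -0.35. Of 16 tested 5 were lower and 1 higher at an unadjusted p below 0.05, against 6.17% and 8.3% of all genes. Chrnd, a subunit of the acetylcholine receptor that denervated muscle raises, had 1.59 to 2.47 TPM in melanoma plus lisinopril and 2.75 to 19.4 TPM in control muscle, with control 1 the highest (adjusted p = 0.309). Mstn, myostatin, a brake on muscle growth, had 35.9, 47.7, 31.2 and 93.7 TPM in melanoma plus lisinopril and 14.1, 37.2, 12.9 and 51.6 TPM in control muscle, with overlap (adjusted p = 0.403). Igf1r, the receptor for insulin-like growth factor 1, averaged 8.36 ± 3.01 TPM in melanoma plus lisinopril and 3.62 ± 2.01 TPM in control muscle (SD, n = 4 each, adjusted p = 0.209, and 0.0402 without control 2).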
